A study of Mus musculus with 6 samples.

Results

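The enzymes of lower glycolysis, from glucose-6-phosphate isomerase to pyruvate kinase, were taken as 10 genes by symbol: Gpi1, Aldoa, Aldoc, Tpi1, Pgk1, Pgam1, Eno1, Eno2, Eno3 and Pkm. These symbols matched 11 of the 54532 gene identifiers, because Aldoa names a pair of identifiers. RNA-seq was performed on immortalized bone marrow-derived macrophages (iBMDMs), a mouse cell line. The line was obtained by transforming such macrophages with retroviruses that carry v-raf and v-myc. The cells were infected with a lentivirus encoding either a control shRNA (Control) or an shRNA against Pgam5 (PGAM5 KD), a mitochondrial phosphatase gene, and both groups received LPS at 100 ng/ml for 4 hours before RNA was collected. Each group was 3 libraries under 1 shRNA label, and the labels and methods do not give the number of hairpins or lines. The shRNA and the cells that carry it therefore cannot be told apart. The labels do not say that replicates came from separate cultures, and p-values then measure only the spread between these libraries. No library without LPS was analysed here.

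Glycolysis splits glucose into pyruvate in the cytosol. The upper steps spend ATP to trap and phosphorylate the sugar, and the lower steps rearrange the sugar phosphates, cut them into trioses and return ATP at phosphoglycerate kinase and pyruvate kinase. Macrophages activated by LPS are known to rely heavily on this pathway, and several of its genes are textbook targets of the transcription factor HIF-1, which binds a core of ACGTG or GCGTG. Aldolase and enolase are each encoded by several genes: Aldoa and Eno1 are the broadly expressed forms, Aldoc and Eno2 are best known from neurons, and Eno3 from muscle.

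The recovered depth was 18165600, 20178811 and 19523337 fragments in Control replicates 1 to 3 and 21977825, 18163463 and 24388915 fragments in PGAM5 KD replicates 1 to 3, and a single fragment per kilobase of exon stood for between 0.0410 and 0.0551 FPKM, the unit of fragments scaled to exon length and library size. FPKM summed over all genes reached 304393 to 304889 in Control and 317936 to 324298 in PGAM5 KD libraries. Pgam5 was at 17.1, 12.97 and 13.4 FPKM in Control and 4.33, 5.75 and 4.53 FPKM in PGAM5 KD libraries, a log2 fold change of -1.40 (SE 0.13, adjusted p = 0.000358 from limma). Of 10 macrophage markers, 9 reached a mean of 1 FPKM and Mertk was listed at 0. The summed macrophage markers ranged from 2987 to 3073 FPKM in Control and from 2700 to 2729 FPKM in PGAM5 KD libraries. No neutrophil marker (of 10) and no fibroblast marker (of 8) reached a mean of 1 FPKM. The part of the macrophage markers in the results on the glycolytic genes was not tested.

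All 10 genes were detected in every library, and Pkm, which encodes pyruvate kinase, stood highest on the FPKM scale. In Control libraries the order of the mean levels was Pkm, Aldoa, Pgk1, Pgam1, Eno1, Tpi1, Gpi1, Eno3, Aldoc and Eno2, from 968 FPKM to 5.08 FPKM, and no neighbours in this order overlapped. The order of the means was the same in PGAM5 KD libraries, where Eno1 overlapped Tpi1 and Eno3 overlapped Aldoc. FPKM divides by all annotated exon bases of a gene. For Eno1 these came to 5379 bases, against 2027 bases in its principal transcript. The principal transcript is the longest of the coding transcripts that the annotation marks as principal. Dividing instead by that transcript placed Eno1 in the third position in Control, at 1050.3 fragments per kilobase of that transcript after the same scaling for depth, behind Pkm at 1991 and Aldoa at 1272. Gpi1 was at 205 on this scale in Control, below Tpi1 at 530.5 and above Eno3 at 35.7.

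PGAM5 KD iBMDMs had higher levels of 8 of the 10 genes and lower levels of Eno2 and Eno3 compared with Control, in each case at an adjusted p under 0.05 from limma on log2(FPKM + 1). Over all 10540 genes that averaged 1 FPKM or more, 16.8% were called higher and 14.9% lower by the same rule. The median log2 fold change of the 10 genes was 0.38, beside 0.01 over all genes tested. None of the 10 passed the additional requirement of an absolute log2 fold change above 1, which 1.32% of all genes passed. For none of the 10 did the libraries of the groups overlap: all PGAM5 KD libraries lay above all Control libraries for 8 genes, as for 24.2% of all genes, and below for Eno2 and Eno3, as for 22.9%. With 3 libraries against 3, the exact two-sided permutation test cannot give less than p = 0.1, and it gave p = 0.1 for each of the 10.

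Abundant genes were called higher more often than the rest. Among the 497 genes that averaged 100 FPKM or more, 43.7% were called higher and 11.9% lower, with a median log2 fold change of 0.12. The 6 members in this class (Aldoa, Tpi1, Pgk1, Pgam1, Eno1 and Pkm) were all called higher, and in the order of the fold changes of the 497 genes they took positions 16 (Tpi1), 21 (Pgk1), 35 (Pgam1), 44 (Aldoa), 50 (Pkm) and 56 (Eno1). Scaling to TPM (transcript shares that sum to the same total in every library) moved the calls over all genes to 1088 higher and 2282 lower from 1771 and 1575, and left 8 members higher and 2 lower.

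**Figure D1:**
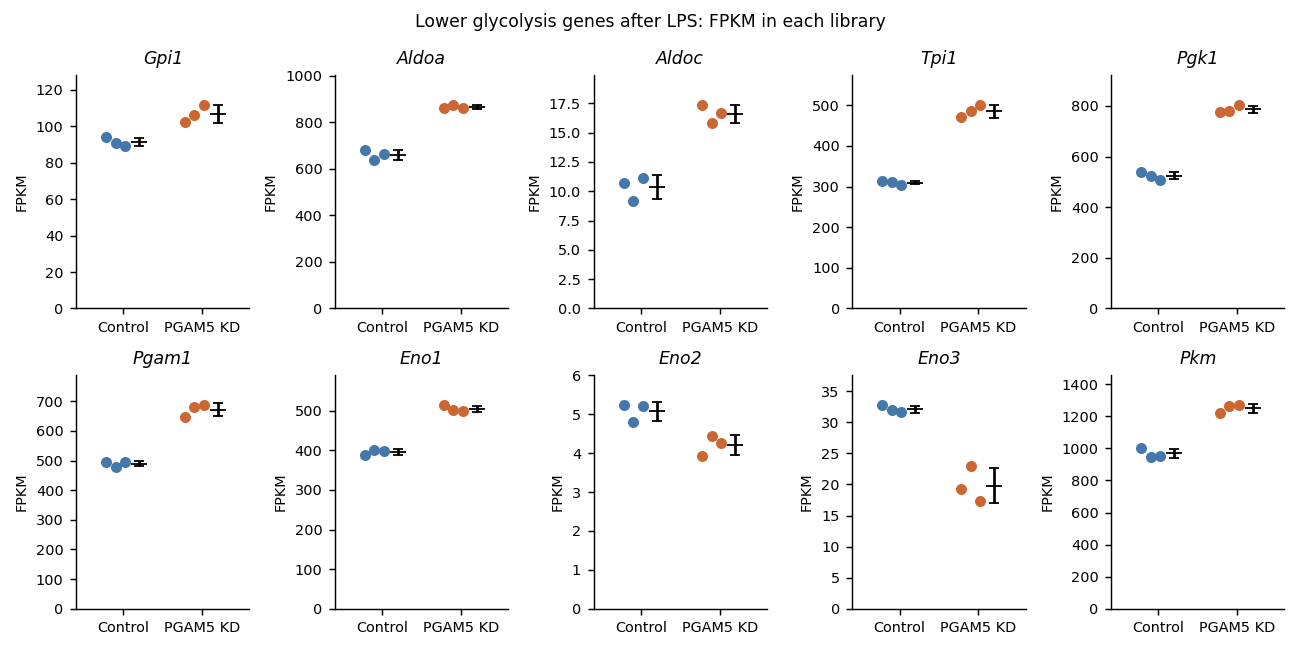
FPKM (linear axes from 0) of each gene in pathway order, with 1 point per library in Control (blue) and PGAM5 KD (orange) and bars for the mean ± SD of 3 libraries. The points of the groups do not overlap in any panel, with PGAM5 KD above Control for 8 genes and below for Eno2 and Eno3.

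Promoter sequence is shown for Pgk1, one of the genes with the largest rise, and for the 3 enolase genes, which moved in opposite directions. The windows are the 250 bases before the transcription start in RefSeq (GRCm38.p6), on the strand of the gene, and capitals mark ACGTG or GCGTG on either strand, so that CACGT and CACGC are the same cores read on the other strand. They lie at chrX:106186850-106187099 (+) for Pgk1, chr4:150236458-150236707 (+) for Eno1, chr6:124769674-124769923 (-) for Eno2 and chr11:70656926-70657175 (+) for Eno3.
Pgk1: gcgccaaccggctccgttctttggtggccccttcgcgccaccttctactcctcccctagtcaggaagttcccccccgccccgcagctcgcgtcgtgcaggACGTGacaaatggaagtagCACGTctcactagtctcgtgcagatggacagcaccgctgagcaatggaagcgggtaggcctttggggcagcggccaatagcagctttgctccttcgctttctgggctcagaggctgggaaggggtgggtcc
Eno1: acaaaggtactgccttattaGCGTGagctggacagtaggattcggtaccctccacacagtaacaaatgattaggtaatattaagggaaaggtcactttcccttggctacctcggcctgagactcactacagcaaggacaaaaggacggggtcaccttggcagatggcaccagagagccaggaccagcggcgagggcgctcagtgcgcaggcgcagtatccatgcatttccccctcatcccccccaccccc
Eno2: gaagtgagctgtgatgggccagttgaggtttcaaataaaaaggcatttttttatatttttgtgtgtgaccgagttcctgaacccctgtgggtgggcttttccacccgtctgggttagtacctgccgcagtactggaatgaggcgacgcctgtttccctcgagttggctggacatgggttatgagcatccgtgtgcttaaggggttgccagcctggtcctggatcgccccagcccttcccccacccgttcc
Eno3: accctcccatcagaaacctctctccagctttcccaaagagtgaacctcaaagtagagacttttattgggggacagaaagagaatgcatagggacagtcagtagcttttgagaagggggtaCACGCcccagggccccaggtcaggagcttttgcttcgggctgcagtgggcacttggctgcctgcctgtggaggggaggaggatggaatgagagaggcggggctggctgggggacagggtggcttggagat
The Pgk1 window held 2 cores, starting 150 and 131 bases before the start site. Eno1 held 1 core at 230 bases in this window and 2 cores in each of its other RefSeq windows, Eno3 held 1 core at 130 bases, and Eno2 held none. All 10 genes matched RefSeq, with 16 windows, of which 11 held a core, beside 38.6% of all 32851 windows of this length. A pair of Aldoa windows and a pair of Eno1 windows overlap and hold the same cores, so the 11 are not independent. By gene, Aldoa, Aldoc, Pgk1, Pgam1, Eno1, Eno3 and Pkm had at least 1 window with a core, and Gpi1, Tpi1 and Eno2 had none. Of all 27025 genes with a window 41.5% had a core, and of those with 2 or 3 windows, as Aldoa, Aldoc, Eno1 and Pkm have, 60.7%. The E-box CACGTG, which contains ACGTG, was in none of the 16 windows and in 6.02% of all windows. These matches are a description of letters and not of binding.

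Gpi1 (ENSMUSG00000036427, chr7:34201330-34230336, minus strand, GRCm38) encodes the isomerase that turns glucose-6-phosphate into fructose-6-phosphate. It was at 93.9, 90.9 and 89.5 FPKM in Control and 102, 106 and 112 FPKM in PGAM5 KD libraries. The lowest PGAM5 KD library stood above the highest Control library, and the mean rose by 16.7%, from 91.4 ± 2.28 to 107 ± 4.78 FPKM (SD, n = 3). At 0.22 (SE 0.04, adjusted p = 0.00775 from limma), its log2 fold change was the smallest of the 8 increases. After scaling to TPM it was 0.14 (adjusted p = 0.0305 from limma). A stretch of about 200 bases in its longest transcript resembles parts of otherwise unrelated genes, among which Cd9, Bub3, Atrn, Mrps26, Nav1, Exo1, Atp10d, Pnp and Atp6v0e2 each held at least 1% of the summed fragments. Summed with every such gene, the log2 change was 0.07. With matches of at least 250 bases only, Gpi1 held 99.8% to 99.9% of the fragments and the change was 0.22.

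Aldoa (ENSMUSG00000030695, chr7:126795234-126800751, minus strand) encodes the main aldolase, which cleaves fructose-1,6-bisphosphate into a pair of trioses. Its level was 679, 638 and 663 FPKM in Control and 859.9, 873 and 861 FPKM in PGAM5 KD libraries, a rise of 31.0% on the FPKM scale. The 3 PGAM5 KD libraries lay closer to each other than the Control libraries did, and all were above them. The log2 fold change was 0.39 (SE 0.03, adjusted p = 0.000190 from limma). The other Aldoa identifier, ENSMUSG00000114515, covers 799 exon bases and held 12 to 31 fragments per library. It was at 0.965, 1.30 and 1.67 FPKM in Control and 1.77, 0.827 and 1.33 FPKM in PGAM5 KD libraries, overlapping throughout (log2 fold change -0.01, 95% interval -0.46 to 0.44, adjusted p = 0.971 from limma).

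Aldoc (ENSMUSG00000017390, chr11:78322968-78327781, plus strand) encodes the aldolase best known from brain. Its level was 10.7, 9.19 and 11.1 FPKM in Control and 17.4, 15.8 and 16.7 FPKM in PGAM5 KD libraries, on 605 to 1327 fragments. The mean rose from 10.3 ± 1.02 to 16.6 ± 0.786 FPKM (SD, n = 3), which at 60.7% was the largest relative rise of the 10. The log2 fold change was 0.64 (SE 0.07, 95% interval 0.46 to 0.81, adjusted p = 0.00110 from limma). Aldoc nonetheless was a small part of the aldolase signal, at 1.55%, 1.42% and 1.65% of Aldoa plus Aldoc FPKM in Control and 1.98%, 1.78% and 1.90% in PGAM5 KD libraries. The shares did not overlap and differed by 0.345 percentage points (exact permutation test, p = 0.1). Per kilobase of the principal transcripts, in place of all exons, the Aldoc share was 0.942% in Control and 1.154% in PGAM5 KD libraries. The longest transcripts of Aldoa and Aldoc were 77.8% identical over 1003 aligned bases, and no gene resembled Aldoc closely enough to count as a look-alike.

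Tpi1 (ENSMUSG00000023456, chr6:124810586-124814296, minus strand) encodes triosephosphate isomerase, which makes both trioses available to the later steps. It was at 313, 311 and 305 FPKM in Control and 470.0, 485 and 501 FPKM in PGAM5 KD libraries. The mean rose from 309.7 ± 4.34 to 485 ± 15.3 FPKM (SD, n = 3), an increase of 56.7% that was many times the spread in either group. On the log2 scale Tpi1 rose by 0.65 (SE 0.03, adjusted p = 2.68e-05 from limma). Tpi1 shares 34 exon bases with Spsb2 on the opposite strand, and Spsb2 was at 2.66 to 4.06 FPKM.

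The next enzyme, glyceraldehyde-3-phosphate dehydrogenase, is encoded by Gapdh and was read with its pseudogenes. The Gapdh identifier was at 8.91, 66.1 and 7.37 FPKM in Control and 73.9, 7.41 and 61.2 FPKM in PGAM5 KD libraries, which split the libraries of both groups. It held only 1.90% to 18.5% of the fragments on Gapdh and its look-alikes, while the pseudogene Gm13394, 99.9% identical over 1000 bases, held 78.6% to 94.8% and Gm5559 up to 1.01%. For the Gapdh identifier alone the log2 fold change was 0.94 with an SE of 1.05 (adjusted p = 0.535 from limma). Summed over Gapdh and its look-alikes, the log2 change was 0.35 (SD 0.13 in Control and 0.10 in PGAM5 KD libraries), with all PGAM5 KD libraries above all Control libraries.

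Pgk1 (ENSMUSG00000062070, chrX:106187100-106203699, plus strand) encodes phosphoglycerate kinase, the first step to return ATP. Its level was 537, 525 and 509 FPKM in Control and 776, 781 and 803 FPKM in PGAM5 KD libraries. The mean rose by 50.3%, from 524 ± 13.96 to 787 ± 14.5 FPKM (SD, n = 3). The log2 fold change of 0.59 (SE 0.03, adjusted p = 3.48e-05 from limma) was the third largest increase of the 10, after Tpi1 and Aldoc.

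Pgam1 (ENSMUSG00000011752, chr19:41911923-41918660, plus strand) encodes phosphoglycerate mutase. It shares the first part of its name with Pgam5, the targeted gene, which encodes a protein phosphatase and not an enzyme of glycolysis. Pgam1 was at 496, 479 and 495 FPKM in Control and 648, 681 and 686 FPKM in PGAM5 KD libraries, a rise of 37.1% in the mean. On the log2 scale this was 0.45 (SE 0.03, adjusted p = 0.000136 from limma). The pseudogene Pgam1-ps2, identical to it over 765 bases, held at most 1.01% of their summed fragments.

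Eno1 (ENSMUSG00000063524, chr4:150236721-150248879, plus strand) encodes the enolase of most tissues. Its level was 388, 402 and 398 FPKM in Control and 514, 503 and 499 FPKM in PGAM5 KD libraries. The mean rose by 27.7%, from 396 ± 7.40 to 505 ± 7.51 FPKM (SD, n = 3), with a log2 fold change of 0.35 (SE 0.03, adjusted p = 0.000189 from limma).

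Eno2 (ENSMUSG00000004267, chr6:124760053-124769673, minus strand) encodes the neuronal enolase and was the lowest of the 10 genes, on 380 to 488 fragments. It was at 5.23, 4.79 and 5.21 FPKM in Control and 3.94, 4.45 and 4.25 FPKM in PGAM5 KD libraries. The groups came close to each other without overlapping, with the lowest Control library at 4.79 FPKM and the highest PGAM5 KD library at 4.45 FPKM. The mean fell by 17.1%, from 5.08 ± 0.248 to 4.21 ± 0.258 FPKM (SD, n = 3), with a log2 fold change of -0.22 (SE 0.07, 95% interval -0.38 to -0.06, adjusted p = 0.0443 from limma). This call was lost when any 1 of the 6 libraries was left out (adjusted p from 0.0569 to 0.120 from limma). Eno2 lies 40.9 kb from Tpi1 on chromosome 6, and they moved in opposite directions.

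Eno3 (ENSMUSG00000060600, chr11:70657202-70662513, plus strand) encodes the muscle enolase. Its level was 32.7, 32.0 and 31.6 FPKM in Control and 19.3, 22.9 and 17.3 FPKM in PGAM5 KD libraries. The Control libraries lay close together, the PGAM5 KD libraries were more spread, and the groups were far from overlapping. The mean fell by 38.2%, from 32.1 ± 0.575 to 19.8 ± 2.85 FPKM (SD, n = 3). The log2 fold change was -0.68 (SE 0.09, 95% interval -0.89 to -0.46, adjusted p = 0.00200 from limma), and it stayed between -0.78 and -0.59 when 1 library at a time was left out. Eno3 had 724 to 1122 fragments per library and no look-alike gene, and its longest transcript was 77.1% identical to that of Eno1 over 1313 aligned bases.

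Eno1 made up most of the enolase signal, at 91.4% of Eno1 plus Eno2 plus Eno3 FPKM in Control and 95.5% in PGAM5 KD libraries. The Eno3 share was 7.69%, 7.29% and 7.27% in Control and 3.59%, 4.32% and 3.32% in PGAM5 KD libraries, a difference of -3.67 percentage points (exact permutation test, p = 0.1). The Eno2 share was 1.23%, 1.09% and 1.20% in Control and 0.733%, 0.838% and 0.817% in PGAM5 KD libraries. These shares depend on the length used for Eno1. Per kilobase of the principal transcripts the Eno3 share was 3.26% in Control and 1.61% in PGAM5 KD libraries. The Eno2 share was 0.782% and 0.518%, again with no overlap. The summed enolase level rose from 433 ± 6.74 to 529 ± 8.10 FPKM (SD, n = 3). Markers of muscle and neurons, the tissues for which Eno3, Eno2 and Aldoc are known, were low: of 10 such genes none reached a mean of 1 FPKM, and Nefl, Snap25, Myh1 and Rbfox3 were listed at 0. Their sum ranged from 0.179 to 0.669 FPKM in Control and from 0.633 to 1.66 FPKM in PGAM5 KD libraries, and the highest was Mylpf at 0.608 FPKM.

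**Figure D2:**
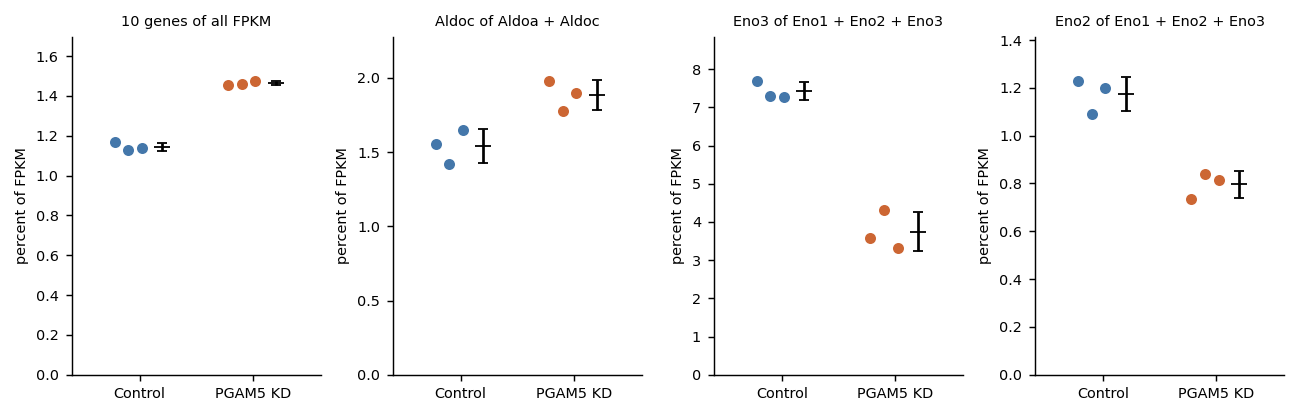
Percent of FPKM (linear axes from 0) by library in Control (blue) and PGAM5 KD (orange), with bars for the mean ± SD of 3 libraries: the 10 genes as a share of all genes, Aldoc as a share of the aldolases, and Eno3 and Eno2 as shares of the enolases. The share of the 10 genes rose from 1.14% to 1.46%, the Aldoc share rose, and the Eno3 and Eno2 shares were lower in every PGAM5 KD library than in any Control library.

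Eno1 also shares sequence with genes that took a large part of the fragments. Eno1b, 99.5% identical over 1736 bases, held 20.6% to 21.9% of the fragments on Eno1 and its look-alikes in each library, and the processed pseudogene Gm4735, 99.6% identical over 1302 bases, held 16.6% to 18.2%. Eno1 itself held 60.1% to 61.2%. Eno1b rose from 397 to 517 FPKM (log2 fold change 0.38, SE 0.03, adjusted p = 0.000114 from limma) and Gm4735 from 482 to 581 FPKM (log2 fold change 0.27, SE 0.03, adjusted p = 0.00149 from limma). Summed over Eno1 and its look-alikes, the log2 change was 0.34 (SD 0.02 in Control and 0.01 in PGAM5 KD libraries), beside 0.35 for Eno1 alone. With these fragments added, the level of Eno1 per kilobase of its principal transcript was 1736 in Control and second only to Pkm. On the other scale, FPKM over all annotated exon bases, the Eno3 share of the enolases with these fragments added was 4.67% in Control and 2.33% in PGAM5 KD libraries.

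**Figure D3:**
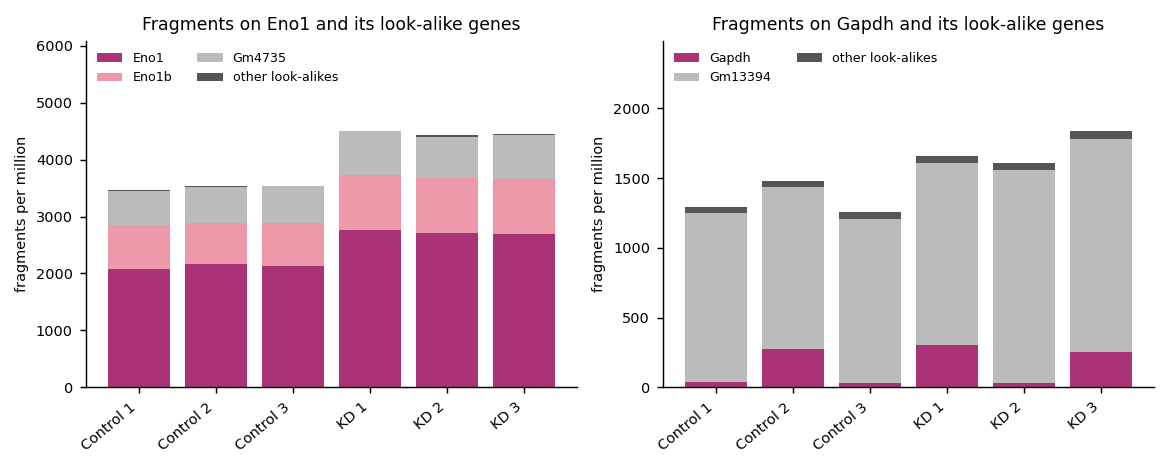
Fragments scaled to the depth of each of the 6 libraries (linear axes from 0) on Eno1 with its look-alike genes (left) and on Gapdh with its look-alike genes (right), stacked by gene. The Eno1 fractions are alike in all libraries, at 60.1% to 61.2% on Eno1, while the Gapdh fraction varies from 1.90% to 18.5% within groups and the total stays higher in PGAM5 KD libraries.

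Pkm (ENSMUSG00000032294, chr9:59656368-59679375, plus strand) encodes pyruvate kinase of the M type, whose transcripts include one or the other of a pair of exclusive exons. The deposited value covers all its transcripts, so the choice of exon was not analysed here. Pkm was at 1002, 949 and 954 FPKM in Control and 1218, 1261 and 1268 FPKM in PGAM5 KD libraries, on 91001 to 154646 fragments. The mean rose by 29.0%, from 968 ± 29.2 to 1249 ± 27.2 FPKM (SD, n = 3), and the log2 fold change was 0.37 (SE 0.03, adjusted p = 0.000305 from limma). The pseudogene Gm6560 held at most 1.01% of the summed fragments. Of 4 splicing factors known to act on the Pkm exon choice, Ptbp1 was lower, at 154, 157 and 157 FPKM in Control and 143, 142 and 138 FPKM in PGAM5 KD libraries (log2 fold change -0.14, SE 0.03, adjusted p = 0.0105 from limma). Hnrnpa1, Hnrnpa2b1 and Srsf3 did not pass the test, and the median of the 4 was -0.08. Over all genes 14.9% were called lower. Among genes of at least 100 FPKM, the class of Ptbp1, Hnrnpa1 and Hnrnpa2b1, 11.9% were. Under scaling to TPM 3 of the 4 were called lower, where over all 10540 genes tested the lower calls also grew, from 1575 to 2282. After quantile normalization all 4 were called lower, with 1721 lower calls over the same 10540 genes.

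Pgk1 was used as a reference inside each library to see which genes changed more or less than their neighbours, in 9 log2 ratios. Relative to Pgk1, the difference between groups was -0.37 for Gpi1, -0.20 for Aldoa, -0.13 for Pgam1, -0.24 for Eno1 and -0.22 for Pkm, with no overlap of the groups for any of these 5 (exact permutation test, p = 0.1 each). Tpi1 rose slightly more than Pgk1, by 0.06, again with no overlap (exact permutation test, p = 0.1). The ratio of Aldoc to Pgk1 overlapped between groups (difference 0.10, exact permutation test, p = 0.4). The ratios for Eno2 and Eno3 differed by -0.86 and -1.29, without overlap (exact permutation test, p = 0.1 each). Adjusted over the 9 ratios, none of these p-values can fall below 0.1. Pgk1 was itself among the larger increases and was chosen with its values known.

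Together the 10 genes took 1.17%, 1.13% and 1.14% of all FPKM in Control and 1.46%, 1.46% and 1.48% in PGAM5 KD libraries. The sum was thus 1.28 times as high within each library's own total, from 1.14% ± 0.0200 to 1.46% ± 0.0104 (SD, n = 3). The sum is dominated by Pkm, Aldoa and Pgk1, and the share of each of the 8 higher genes was above, and those of Eno2 and Eno3 below, the Control range in all PGAM5 KD libraries.

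**Figure D4:**
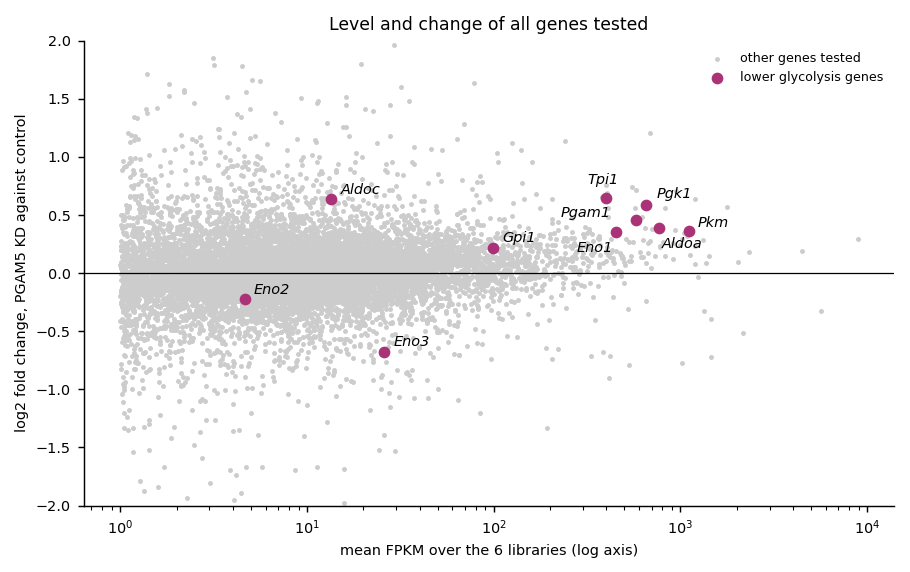
Log2 fold change of FPKM + 1 (PGAM5 KD against Control, linear axis from -2 to 2) against mean FPKM over the 6 libraries (log axis) for all 10540 genes tested, with the 10 genes named. The 6 genes above 100 FPKM lie among abundant genes, of which 43.7% were called higher, Eno3 and Eno2 lie below 0, and 15 genes fall outside the plotted range.

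The size of the increases depended on the scaling. After quantile normalization the log2 fold change was 0.14 for Aldoa, 0.20 for Pkm, 0.23 for Eno1, 0.26 for Pgam1 and 0.36 for Pgk1, each below its value on FPKM as deposited, and all 5 were still called (adjusted p from 0.000725 to 0.00810 from limma). Under the same normalization Gpi1 was at 0.16, Tpi1 at 0.52, Aldoc at 0.63, Eno2 at -0.22 and Eno3 at -0.70, against 0.22, 0.65, 0.64, -0.22 and -0.68.

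The other genes that act at the same steps, listed together with those of the Gapdh step, were mostly low. Of these 9 genes, 5 passed the filter of a mean of 1 FPKM, Gapdh among them. Eno1b alone was called, in the higher direction, beside 16.8% higher and 14.9% lower over all genes. The median log2 fold change over the 5 was 0.17. Pgk2, known from testis, and Pklr, the pyruvate kinase of liver and red cells, were listed at 0 in all 6 libraries. Pgam2, the muscle mutase, was at 2.29, 1.36 and 2.26 FPKM in Control and 1.08, 1.44 and 1.42 FPKM in PGAM5 KD libraries, which overlap (log2 fold change -0.35, adjusted p = 0.141 from limma).

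Of the 13 tested genes of glucose entry and upper glycolysis, 6 were called higher and 1 lower. Their median log2 fold change was 0.15, beside 16.8% higher and 14.9% lower over all genes. The phosphofructokinases, which commit the sugar to glycolysis, were all called higher: Pfkl by 0.62 (SE 0.04), Pfkp by 0.61 (SE 0.05) and Pfkm by 0.43 (SE 0.09) on the log2 scale. The hexokinase gene Hk1 was higher by 0.50 (SE 0.04) and the glucose transporter gene Slc2a1 by 0.42 (SE 0.03). Hk3, a hexokinase of blood cells, was lower, at 26.7, 27.9 and 26.8 FPKM in Control and 20.7, 24.9 and 22.9 FPKM in PGAM5 KD libraries (log2 fold change -0.24, adjusted p = 0.0313 from limma). No gene of the list was called lower when Control replicate 1 or 3 or PGAM5 KD replicate 1 or 3 was left out, or when genes of any level were tested. The regulatory Pfkfb genes and Tigar were not called.

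Downstream of Pkm, 7 of the 12 tested genes of pyruvate and lactate handling were called higher and none lower, with a median log2 fold change of 0.25, beside the same shares over all genes and 43.7% higher among genes of at least 100 FPKM, the class of Ldha, Bsg and Slc16a1. Slc16a3, the lactate exporter MCT4, was at 60.4, 57.3 and 61.4 FPKM in Control and 105, 102 and 104 FPKM in PGAM5 KD libraries, with a log2 fold change of 0.79 (SE 0.04, adjusted p = 2.46e-05 from limma) that was above that of any of the 10 lower glycolysis genes. Ldha, which reduces pyruvate to lactate, was higher by 0.56 (SE 0.02) and Bsg, the chaperone of the lactate transporters, by 0.43 (SE 0.04). The pyruvate dehydrogenase kinase genes Pdk1 and Pdk3 were higher by 0.43 (SE 0.08) and 0.40 (SE 0.04), and pyruvate carboxylase Pcx by 0.27 (SE 0.07). The lactate transporter Slc16a1 was at 106 FPKM in both groups (log2 fold change 0.00, 95% interval -0.07 to 0.08, adjusted p = 0.977 from limma).

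**Figure D5:**
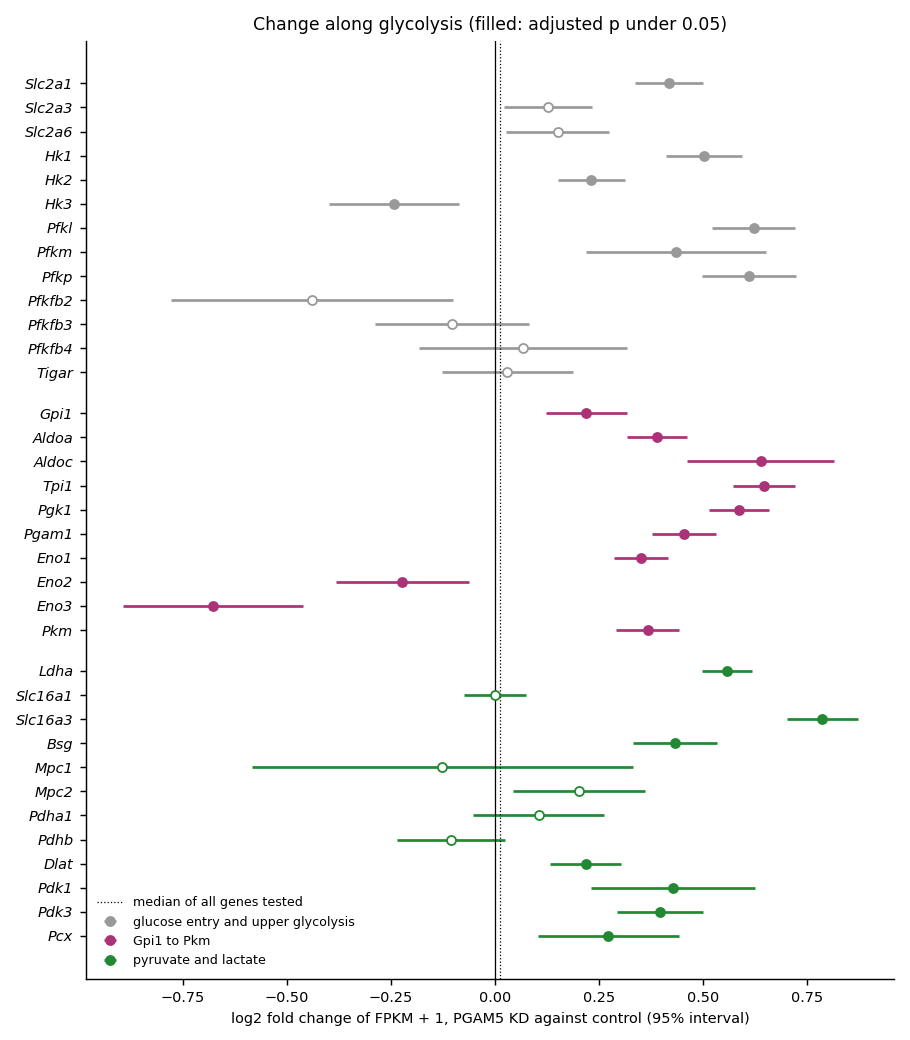
Log2 fold change of FPKM + 1 (PGAM5 KD against Control) with its 95% interval from limma for tested genes of glucose entry and upper glycolysis (grey), the 10 genes from Gpi1 to Pkm (purple) and pyruvate and lactate handling (green), filled where the adjusted p was under 0.05. The largest increase shown is that of Slc16a3 at 0.79, the dotted line marks the median of all genes, and Hk3, Eno2 and Eno3 are the called genes to the left of 0.

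Branches leave the pathway between Tpi1 and Pgam1. Of 9 tested genes of the glycerol phosphate, methylglyoxal and serine routes, 2 were called higher, with a median log2 fold change of 0.08, beside 16.8% called higher over all genes. The 2 genes were Psph (0.49, SE 0.07) and Psat1 (0.18, SE 0.03) of serine synthesis, while Phgdh, the entry enzyme of that route, was at 136 ± 3.73 FPKM in Control and 145 ± 10.7 FPKM in PGAM5 KD libraries (SD, n = 3), with overlapping groups. Without PGAM5 KD replicate 1, 4 of the 9 were called higher. Of the 6 genes that bypass glycolytic steps in gluconeogenesis, 2 were tested, and Pck2, the mitochondrial phosphoenolpyruvate carboxykinase, was called higher (0.43, SE 0.09). Pck1 and G6pc were listed at 0 in all libraries.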

How the data were processed

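The authors deposited 1 table of FPKM per library, listing every Ensembl gene. The submitters' processing notes name HISAT2 2.0.5, featureCounts 1.5.0-p3 and mm10, and the labels do not settle whether strand information was kept. Of 54532 gene identifiers, 54495 were in GENCODE M21 (GRCm38), which gave symbols, positions and exon lengths. FPKM times exon length fell on whole fragments within 0.01 for 96.8% to 97.1% of values under 1000 fragments, which gave the depth. Reads shared between near-identical genes may be split or lost in such counting, so fragments were also summed over look-alike genes (blastn 2.17.0, at least 85% identity over 200 bases).

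The main test was two-sided and used limma 3.58.1 (R 4.3.3), with eBayes following the mean-variance trend, on log2(FPKM + 1) for the 10540 genes with a mean of at least 1 FPKM, with Benjamini-Hochberg adjustment over all of them. Fold changes on this scale understate the change of low genes. Calls were made at an adjusted p under 0.05, and again with an absolute log2 fold change above 1. Exact permutation tests over libraries were used for shares and ratios. The script was tested on simulated data. Alternatives were another pseudocount and filter, scaling to TPM, quantile normalization, centring, size factors, no trend, array weights, a replicate block, voom on recovered fragments and leaving out each library. The members and gene lists were chosen with earlier results of these data known. Named genes were all 10 members, the called genes of each list (at most the 6 with the largest change), look-alike or overlapping genes with at least 1% of the summed fragments, Pgam5, and the 5 abundant genes with the most similar profile. Other names were chosen after their values were seen: Hnrnpa1, Hnrnpa2b1, Srsf3, Slc16a1, Pgam2, Phgdh, Tigar, Spsb2, the Pfkfb genes, the genes listed at 0 and the markers named.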

Additional observations from a re-analysis of the deposited data

How the results depend on the processing

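The 8 increases and the fall of Eno3 kept their direction and their call under every alternative fit with a test, also with the replicate block, and 0 of the 10 genes reversed. Eno2 (-0.22) was not called when low genes were kept in the fit (adjusted p = 0.1003 from limma) or with the replicate block (adjusted p = 0.102 from limma), and was between -0.26 and -0.18, uncalled, with 1 library left out. Members called lower therefore numbered 1 without the filter, at a minimum of 5 FPKM (where Eno2 is not tested), with the block and with any 1 library left out (1 to 1). Replicate numbers did not pair the libraries: same-numbered deviations correlated at -0.02, 0.02 and -0.05. Over all genes the block gave 1440 higher and 1212 lower.

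The list of the same steps and the Gapdh step had 1 called lower without the filter (0 to 1 with 1 library left out). Upper glycolysis had 0 called lower without the filter and 2 with TPM, array weights or voom (0 to 1 with 1 library left out). Pyruvate and lactate had 1 called lower with TPM. The branches had 2 to 4 called higher with 1 library left out, and gluconeogenesis 0 called higher at a minimum of 5 FPKM. The splicing factors had 3 called lower with TPM and 4 with quantile normalization. All genes called higher numbered 1088 with TPM. Those past an absolute log2 fold change of 1 numbered 261 with a pseudocount of 0.1, 76 at a minimum of 5 FPKM, 233 with TPM and 283 with voom, against 139. The rise in the share of the 10 genes was 0.379 percentage points of protein-coding FPKM, against 0.319. With Eno1b and Gm4735 fragments added to Eno1, an alternative chosen after seeing the data, the shares of Eno2 and Eno3 differed by -0.243 and -2.33 percentage points. With the length of the principal transcript, chosen likewise, the shares of Aldoc, Eno1, Eno2 and Eno3 differed by 0.213, 1.92, -0.264 and -1.65 percentage points. The cause of the other shifts was not tested. The thinnest values were those of Eno2 and the second Aldoa identifier, at 380 to 488 and 12 to 31 fragments.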

Other observations

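The mean profile of the 10 lower glycolysis genes, which averages the 8 that rose with Eno2 and Eno3, was compared over the 6 libraries with that of the 491 other genes above 100 FPKM. The 5 nearest were Ehd1, a gene of endosomal recycling, Capg, which encodes an actin-capping protein, the ribosomal protein genes Rps15 and Rps9, and the translation elongation factor gene Eef1b2. The root mean square distance on the log2 scale was 0.0211 for Ehd1, 0.0221 for Capg, 0.0225 for Rps15, 0.0232 for Eef1b2 and 0.0233 for Rps9. The profile holds the difference between groups, so that genes chosen for likeness to it are higher in PGAM5 KD by construction: Rps9 went from 327 to 409 FPKM and Ehd1 from 136 to 161 FPKM. The profiles share libraries and depth, so likeness over 6 points is a description.

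An unnamed transcript inside Pkm moved against its host. Gm49759 (chr9:59672814-59676700), chosen after its values were seen, lies on the same strand and shares 767 of the 5001 exon bases of Pkm. It was at 18.6, 18.1 and 16.4 FPKM in Control and 10.4, 11.1 and 11.1 FPKM in PGAM5 KD libraries, with no overlap (log2 fold change -0.65, SE 0.06, adjusted p = 0.000346 from limma), while Pkm rose. How fragments on the shared bases were assigned is not given in the sources used here.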
